A study of Mus musculus with 2 samples.

Results

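The glutathione and antioxidant enzyme genes of the newborn mouse kidney were taken by symbol: the rule names the glutathione transferases, glutathione peroxidases, peroxiredoxins, thioredoxins, glutaredoxins and superoxide dismutases, the enzymes that make and recycle glutathione, the quinone reductases, and the regulators Nfe2l2 and Keap1. It found 63 protein-coding genes among the 21474 named protein-coding genes of the tables. No measured value entered the rule. Kidneys of mice of the strain B6NCrl were taken on postnatal day 0, and total RNA-seq used 10 ng of RNA above 200 nt, to which spike-ins were added. Both kidneys of 1 pup made up each of 2 libraries; the pups shared a mother, carried no treatment or altered gene in the labels, and form 1 group (n = 2), with their sex not collected. The values therefore describe levels within 1 tissue, and the spread between littermates is the only measure of variation between animals. With 2 pups no test could reach a threshold, so no p-value is given for any result here.

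Glutathione is a small peptide with a reactive thiol. Glutamate-cysteine ligase and glutathione synthetase make it, glutathione transferases couple it to electrophiles, and glutathione peroxidases spend it on hydrogen peroxide and lipid peroxides; glutathione reductase restores it with NADPH. Peroxiredoxins and thioredoxins form a parallel line of peroxide removal, superoxide dismutases feed both by turning superoxide into hydrogen peroxide, and the transcription factor NRF2 (Nfe2l2), held down by KEAP1, drives many of these genes. The kidney's proximal tubule is known for high glutathione turnover and for secreting plasma glutathione peroxidase, Gpx3.

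Levels are deposited TPM, a measure that is divided by transcript length and has the same total in each library, so levels of different genes can be set side by side. The libraries held 41584961 expected counts (estimated reads) in pup 1 and 48823952 in pup 2, of which the members took 0.903% and 0.910%. Kidney markers were present in both pups: Slc34a1 of the proximal tubule had 287 and 203 TPM, Slc12a1 of the loop of Henle 181 and 176, and Aqp2 of the collecting duct 547 and 638. Whole kidneys were measured, so fewer cells of a type and less RNA per cell cannot be told apart.

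Antioxidant genes were broadly present and many were abundant. A level of 1 TPM or more in both pups was reached by 57 of the 63 members (90.5%), against 61.5% of all protein-coding genes. The median member had 62.7 TPM in the first pup and 59.2 in the second, while the median over all protein-coding genes was 4.81 and 4.62, and over those protein-coding genes that reached 1 TPM in both pups 18.3 and 17.3. In 25 of the 63 members the level was at least 100 TPM in both pups. The same held for 1461 of all 21474 protein-coding genes, of which 13214 reached 1 TPM in both pups. Together the members held 1.20% of TPM in pup 1 and 1.17% in pup 2, a sum of 11871 ± 208 TPM (SD, n = 2), and the 5 of highest level held 47.9% and 47.4% of that sum. Of the 62 pairs of neighbours in the order of mean level, 37 did not overlap over the pups and 25 did, among them Gpx1 with Sod1 and Txn1 with Gstp1.

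**Figure D1:**
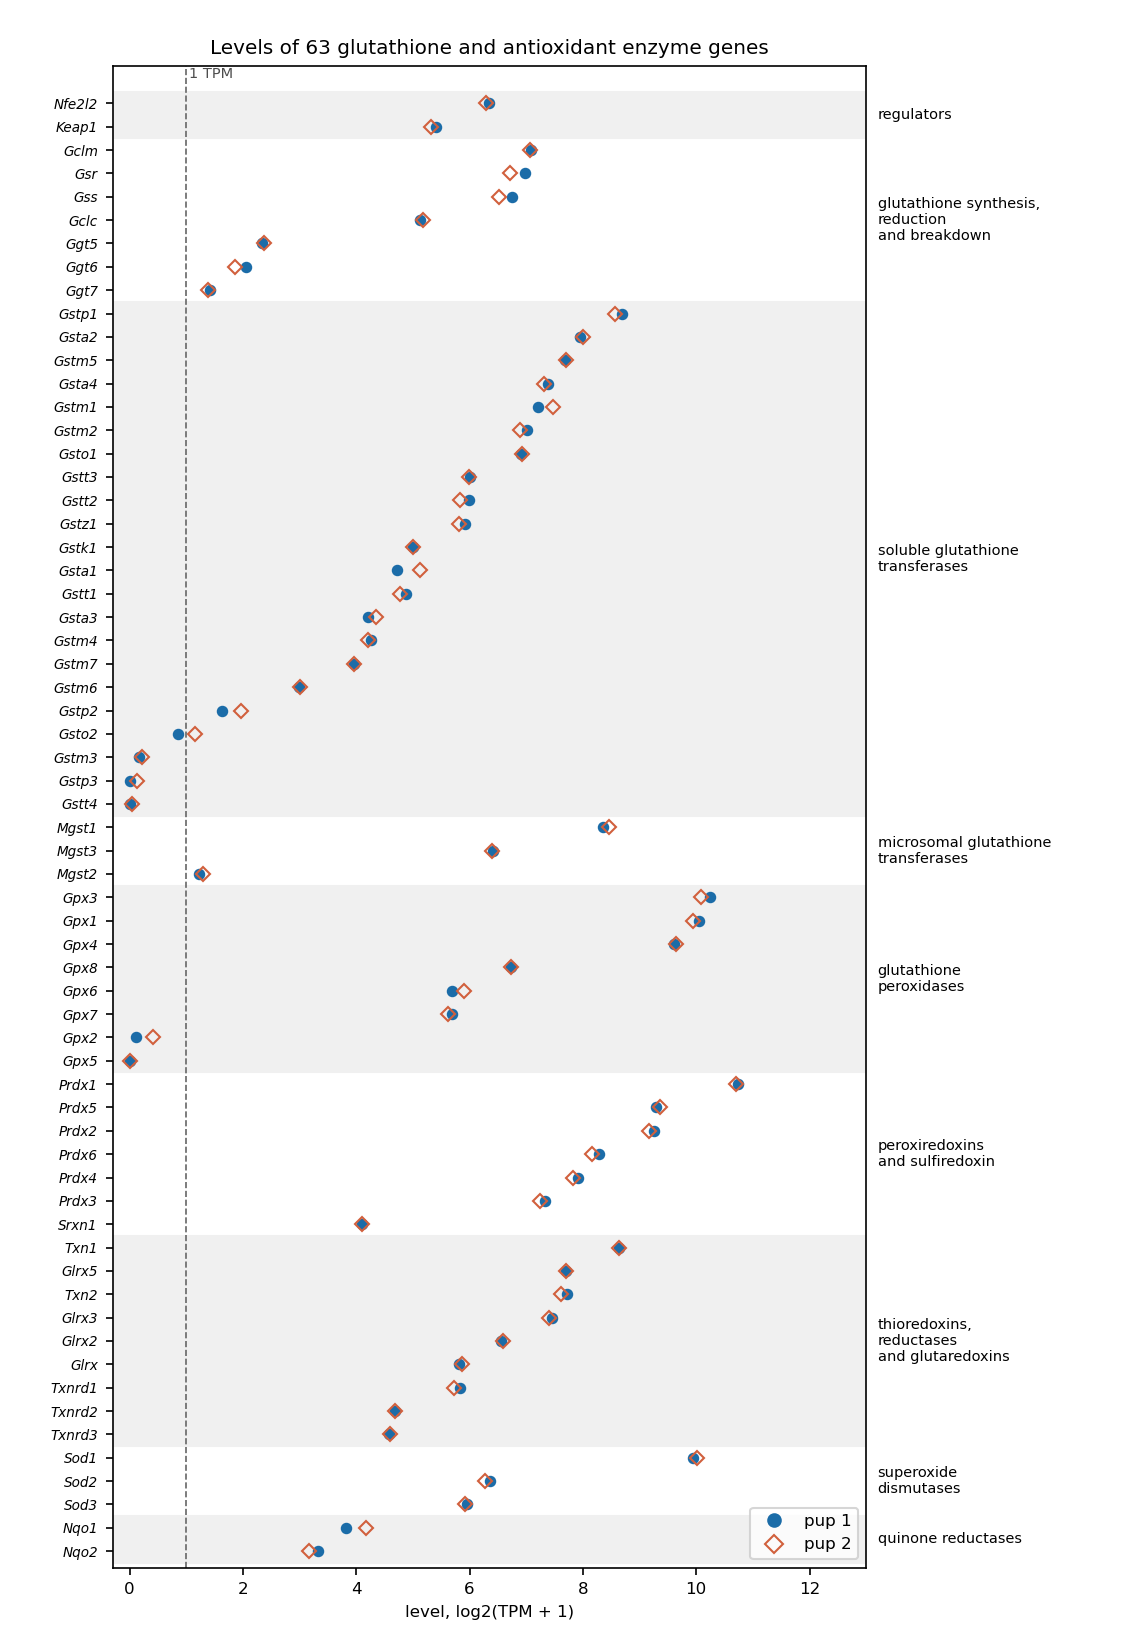
Level of each of the 63 members as log2(TPM + 1) in pup 1 (filled circles) and pup 2 (open diamonds), grouped by role; the dashed line marks 1 TPM. In most genes the pups nearly coincide, and the span between genes, from no expected count in Gpx5 to 1685 TPM in Prdx1, is far wider than the span between pups.

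Peroxiredoxins, thiol enzymes that break down peroxides, together with sulfiredoxin held the largest part of the sum of any of the 9 role groups, 30.6% in pup 1 and 30.4% in pup 2. Prdx1, a cytosolic peroxiredoxin, was the highest member with 1710.5 TPM in pup 1 and 1659 in pup 2 (ENSMUSG00000028691.8, mm10 chromosome 4, 116685544 to 116700822). It ranked 36 and 42 among protein-coding genes by TPM. This first place rests on the division by length. By expected counts Gpx3 was above Prdx1 in pup 1 (53841 against 50452) and below it in pup 2 (59272 against 60540). The mitochondrial and peroxisomal Prdx5 had 627 and 658 TPM. Prdx2, abundant in red blood cells, had 609 and 575 TPM. The levels of Prdx1, Prdx5 and Prdx2 did not overlap with one another over the pups, and Prdx1 was 2.81 and 2.88 times Prdx2. Globin and other erythroid markers summed to 4601 and 4472 TPM, with all 6 above 0; their part in the Prdx2 level was not tested. Below came Prdx6, which also repairs oxidised phospholipids, at 311 and 285 TPM, Prdx4 of the endoplasmic reticulum at 240.1 and 225, and the mitochondrial Prdx3 at 159 and 151. Mitochondrial Prdx3 was thus well under Prdx5, which had 3.94 and 4.34 times its level. Sulfiredoxin, Srxn1, which restores over-oxidised peroxiredoxins, stood at 16.2 and 16.1 TPM, so Prdx1 exceeded it 106-fold in pup 1 and 103-fold in pup 2. In CPM (counts scaled to the library total, not divided by length) the log2 ratio of Prdx1 to Srxn1 was 5.29 in place of 6.62, and that of Prdx5 to Prdx3 was 1.08 in place of 2.04.

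Glutathione peroxidases came next, with 27.1% and 26.2% of the sum, and were divided into a very high, a middle and a nearly silent set. Gpx3, the secreted plasma enzyme, had 1215 TPM in pup 1 and 1088 in pup 2 (ENSMUSG00000018339.7, chromosome 11, 54902453 to 54910377). The cytosolic Gpx1 had 1059 and 979.98 TPM. Gpx4, which reduces lipid hydroperoxides within membranes, had 781 and 797 TPM. The order Gpx3, Gpx1, Gpx4 held without overlap, although the steps were small: Gpx3 was 1.15 and 1.11 times Gpx1, and Gpx1 was 1.36 and 1.23 times Gpx4. In CPM the log2 ratio of Gpx3 to Gpx1 was 1.13 in place of 0.17. In the middle set, Gpx8 and Gpx7, both of the endoplasmic reticulum, had 106 and 105 TPM and 50.4 and 48.2 TPM, a ratio of 2.10 and 2.17. Gpx6, a peroxidase known from olfactory epithelium, reached 50.9 and 58.5 TPM, from 1699 and 2400 expected counts (ENSMUSG00000004341.7, chromosome 13, 21312125 to 21319624). Its neighbour on the chromosome, Gpx5, known from the epididymis, had no expected count in either library; such a 0 leaves room for a level of up to 3 counts, which is 0.0721 CPM in pup 1 and 0.0614 CPM in pup 2, for counting error only. The gut enzyme Gpx2 had 0.08 and 0.34 TPM, from 2.21 and 12 expected counts.

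The 3 most abundant peroxidases share a selenocysteine codon at the active site. Several antioxidant enzymes carry selenocysteine, an amino acid inserted at an in-frame TGA codon that would otherwise end translation. The annotation marks such a codon in 7 members: Gpx1, Gpx2, Gpx3, Gpx4, Txnrd1, Txnrd2 and Txnrd3. In the other peroxidases the coding sequence has a cysteine codon after the same residues (asparagine, valine, alanine, serine or threonine, and any residue). The coding stretches, from GENCODE M21 transcripts (GRCm38), are shown because the levels divide along them; they run 5′ to 3′, with that codon in capitals.
Gpx1: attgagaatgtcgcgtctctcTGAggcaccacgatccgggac
Gpx3: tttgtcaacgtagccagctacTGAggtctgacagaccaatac
Gpx4: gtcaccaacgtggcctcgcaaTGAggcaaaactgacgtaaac
Gpx2: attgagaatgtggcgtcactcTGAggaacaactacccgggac
Gpx6: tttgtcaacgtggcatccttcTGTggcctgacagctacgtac
Gpx7: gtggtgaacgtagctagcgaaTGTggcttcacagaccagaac
Gpx8: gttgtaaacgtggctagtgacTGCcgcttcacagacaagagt
Gpx5: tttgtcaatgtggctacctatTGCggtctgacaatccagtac
The 3 selenocysteine peroxidases Gpx1, Gpx3 and Gpx4 stood between 781 and 1215 TPM, above every cysteine member, the highest of which was Gpx8 at 106 and 105 TPM; Gpx2 is the exception, with the TGA codon at 0.08 and 0.34 TPM. In GRCm38 the codon lies at chr9:108339451-108339453 in Gpx1, chr11:54907256-54907258 in Gpx3 and chr10:80054737-80054739 in Gpx4. The Gpx1 transcript that holds it, Gpx1-201, had 543 and 494 TPM on its own, also above Gpx8. All 6 genes listed for selenocysteine insertion were at 1 TPM or more in both pups, from Sephs2, which makes the selenium donor, at 137 and 127 TPM to Sepsecs, the synthase, at 9.64 and 6.95 TPM.

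In thioredoxin reductases, which use NADPH to reduce thioredoxin, the TGA codon is followed by 1 more codon and the stop codon.
Txnrd1: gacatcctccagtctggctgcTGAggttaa
Txnrd2: gagcctactgtgactggttgcTGAggctaa
Txnrd3: gacattactcagaaaggctgcTGAggctag
The cytosolic Txnrd1 had 55.98 TPM in pup 1 and 52.03 in pup 2, the mitochondrial Txnrd2 24.6 and 24.7, and Txnrd3, known from testis, 23.01 and 23.3. All 3 were thus far under Gpx1, Gpx3 and Gpx4. Txnrd1 was 2.27 and 2.10 times Txnrd2, a log2 ratio of 1.10 that was 2.20 in CPM. Txnrd2 and Txnrd3 did not overlap over the pups but differed by only 1.07 and 1.06 times, and by counts not divided by length Txnrd3 was the higher (log2 ratio of Txnrd2 to Txnrd3 of -0.72).

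Thioredoxins themselves were several times higher than their reductases by TPM. By expected counts, not divided by length, Txn1 (11240 and 13785) was nearer to Txnrd1 (5509 and 6299). Txn2 had 7344 and 8517 counts against 1136 and 1369 for Txnrd2. The cytosolic Txn1 had 398 and 397 TPM (chromosome 4, 57943373 to 57956411) and the mitochondrial Txn2 209 and 196 TPM, a ratio of 1.91 and 2.02. Of the glutaredoxins, the highest were Glrx5, of the mitochondrion, with 207 and 208 TPM and Glrx3, of the cytosol, with 175 and 168 TPM. Glrx2 stood at 92.6 and 95.7 TPM and the classical cytosolic Glrx at 55.5 and 57.4, so that Glrx was 0.599 and 0.600 of Glrx2. This order depends on the division by length: in CPM Glrx was above Glrx2 (log2 ratio 0.24) and Glrx3 above Glrx5 (0.62).

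Superoxide dismutases differed widely. Sod1, the cytosolic copper-zinc enzyme, had 986 TPM in pup 1 and 1030.3 in pup 2 (ENSMUSG00000022982.9, chromosome 16, 90220754 to 90226329). The mitochondrial manganese enzyme Sod2 had 81.2 and 76.2 TPM. Sod3, the secreted enzyme, had 60.7 and 59.2 TPM. The gap from Sod1 to Sod2 was 12.1-fold and 13.5-fold, much larger than the differences between the pups in the members compared, while Sod2 and Sod3 were close but did not overlap. In CPM, not divided by length, the log2 ratio of Sod1 to Sod2 was 0.91 in place of 3.66, so the size of the gap, though not its direction, rests on the division by length. Catalase, Cat, which removes hydrogen peroxide in peroxisomes and is no member, stood at 68.9 and 68.0 TPM.

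Enzymes of glutathione synthesis were unequal. Glutamate-cysteine ligase is made of a catalytic subunit, Gclc, and a modifier, Gclm, that raises its affinity for glutamate. Gclm had 133.95 TPM in pup 1 and 133.6 in pup 2, and Gclc 34.04 and 35.3 TPM (chromosome 9, 77754535 to 77794485). The catalytic subunit's mRNA thus stood at 0.254 and 0.264 of the modifier's. Gclc had 1 transcript, whereas the 2 Gclm models with the full coding sequence of 825 nt, Gclm-206 (57.5 and 55.97 TPM) and Gclm-201 (25.5 and 24.7 TPM), held only part of the Gclm TPM. By expected counts Gclm-201 (3588 and 4266) and Gclm-206 (1539 and 1844) held most of the 6017 and 7279 counts of the gene. In CPM, not divided by length, the log2 ratio of Gclc to Gclm was -0.80 in place of -1.92. Glutathione synthetase, Gss, had 107 and 91.2 TPM and glutathione reductase, Gsr, 125 and 104 TPM. Their levels overlapped over the pups, although Gsr was the higher within each pup. Both were lower in pup 2, by 0.12 and 0.17 on the log2 scale of scaled counts, both small next to the step from Gclc.

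Extracellular glutathione is opened by gamma-glutamyl transferases. The members Ggt5, Ggt6 and Ggt7 were low, at 4.05 and 4.20 TPM, 3.17 and 2.62 TPM, and 1.68 and 1.60 TPM. The brush border enzyme Ggt1, which the symbol rule leaves out, had 320 TPM in pup 1 and 254 in pup 2. The aminopeptidase Anpep, which acts on the product, had 143 and 109 TPM. Of 13 genes listed for glutathione transport and breakdown 11 reached 1 TPM in both pups. The cystine importer Slc7a11 had 0.2 and 0.14 TPM and the cytosolic glutathione-degrading Chac1 0.68 and 0.52 TPM. All 11 genes listed for the supply of NADPH were at 1 TPM or more, led by the mitochondrial isocitrate dehydrogenase Idh2 at 569 and 504 TPM, while G6pdx, which opens the pentose phosphate pathway, had 28.3 and 25.4 TPM.

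Soluble glutathione transferases were the largest group by number, 22 genes, of which 18 reached 1 TPM in both pups. They held 14.6% and 14.8% of the members' sum. The mu class summed to 529 ± 15.5 TPM, the alpha class to 461 ± 8.14, the pi class to 398 ± 23.6, the theta class to 149 ± 6.65 (SD, n = 2), the omega class to 120.3 and 122.05 in the 2 pups, and the single kappa and zeta genes Gstk1 and Gstz1 had 31.1 ± 0.219 and 57.6 ± 3.12. Gstp1 was the highest transferase, with 412 TPM in pup 1 and 378 in pup 2 (ENSMUSG00000060803.5, chromosome 19, 4035407 to 4037985). Of the microsomal transferases, membrane proteins of another family, Mgst1 had 326 and 351 TPM, Mgst3 83.9 and 83.4, and Mgst2 1.34 and 1.45.

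Neighbouring transferase genes stood at very different levels. The 7 mu genes lie within chromosome 3, 107895821 to 108044894, in the order Gstm5, Gstm7, Gstm6, Gstm3, Gstm2, Gstm1, Gstm4. Their levels along it in pup 1 were 204, 14.6, 6.97, 0.12, 128, 146 and 18.3 TPM. In pup 2 they were 207, 14.6, 7.01, 0.16, 118, 176 and 17.4 TPM. A stretch of 3 low genes thus lies between Gstm5 and the pair Gstm2 and Gstm1, and the near-silent Gstm3 sits next to Gstm2. The alpha genes Gsta4, Gsta1 and Gsta2 on chromosome 9 (78182774 to 78355788) had 165 and 159 TPM, 25.5 and 34.1 TPM, and 247 and 255 TPM, and Gsta3 on chromosome 1 had 17.6 and 19.3. In the theta cluster on chromosome 10, Gstt3 and Gstt2 had 63.03 and 62.5 TPM and 62.7 and 55.9 TPM, Gstt1 28.3 and 26.2, and Gstt4 no expected count in pup 1 and 1 in pup 2. The pi genes behind Gstp1 on chromosome 19 were almost silent, with Gstp2 at 2.10 and 2.90 TPM and Gstp3 at 0 and 0.09. Likewise Gsto1 had 119 and 121 TPM and its neighbour Gsto2 0.81 and 1.24.

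**Figure D2:**
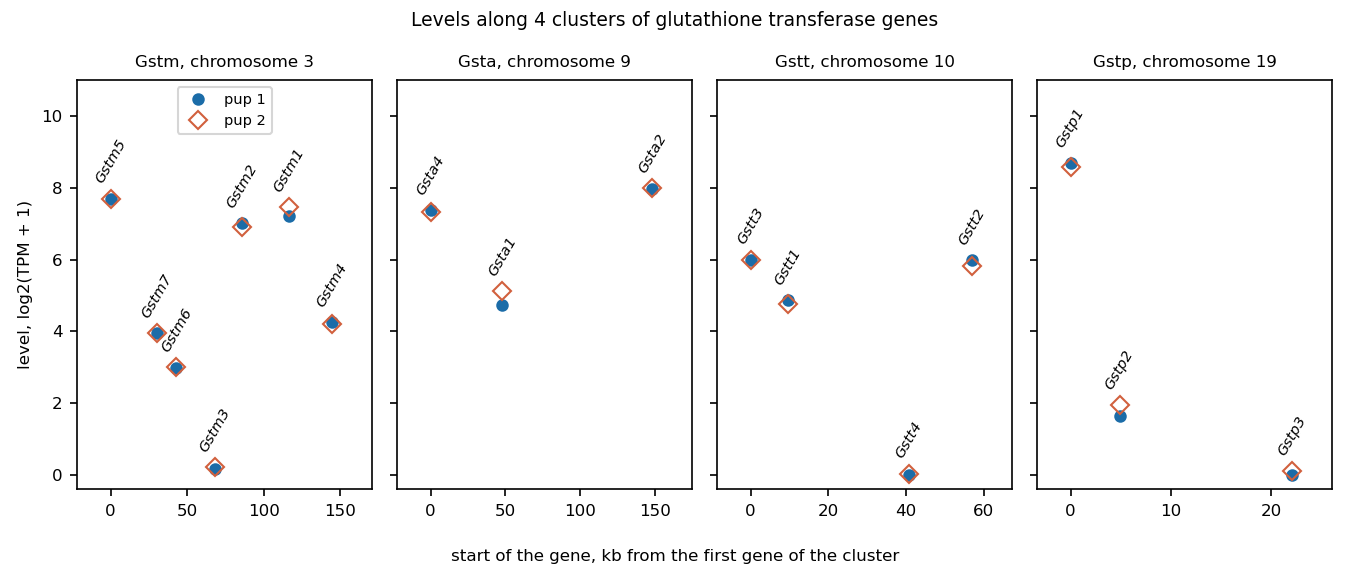
Levels as log2(TPM + 1) along 4 clusters of glutathione transferase genes, plotted by the distance of each gene's start from the first gene of its cluster in kb; filled circles are pup 1 and open diamonds pup 2. Each cluster holds genes above 50 TPM, and those of chromosomes 3, 10 and 19 also hold genes under 0.2 TPM.

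Close copies limit how far these levels can be told apart. Of the members, 10 had 10% or more of their 50-base transcript windows in transcripts of another gene, led by Gsta1 (90.5%), Gstp2 (54.3%), Gsta2 (49.8%), Gpx4 (34.7%) and Gstp1 (33.7%). The coding sequences of Gsta1 and Gsta2 were 97.5% identical with a longest identical run of 196 nt. The first 60 coding bases are the same in both:
Gsta1 and Gsta2: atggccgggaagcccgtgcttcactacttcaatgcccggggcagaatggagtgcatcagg
Gsta1 shares 75.7% of its windows with Gm3776, a gene not analysed here. A related protein-coding gene outside the rule, Gm10639, is 98.5% identical to Gsta2 over the coding sequence and had 67.96 and 63.2 TPM. Gstp1 and Gstp2 were 98.1% identical. Their first 60 coding bases differ at 6 positions, shown in capitals:
Gstp1: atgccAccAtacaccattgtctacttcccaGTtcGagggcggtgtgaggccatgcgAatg
Gstp2: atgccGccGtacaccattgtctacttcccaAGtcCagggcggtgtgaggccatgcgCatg
The deposited tables give a posterior SD of each count, which measures how uncertain the model was about the division of shared reads. It was 0 in both pups for 34 of the 57 members at 1 TPM or more, and above 1% of the count in 2 of them: Gsta1 (1.86% and 1.39%) and Gstp2 (18.1% and 13.9%). For Gpx4 it was 0 although 34.7% of its windows also lie in the pseudogene Gpx4-ps2, which was not analysed here. Windows of Sod2 were found in 202 other genes, with the largest share in Rps6ka2 (6.05 and 5.96 TPM) among the genes that have a level here. Exons of other genes overlap some members on the opposite strand, over 19.1% of Prdx5 (Trmt112, 112 and 113 TPM) and 18.9% of Nqo2 (Serpinb6a, 65.1 and 68.4 TPM); whether reads were counted by strand was not stated in the labels, so the genes of such a pair may share reads.

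Other antioxidant genes outside the rule were all present: the 11 listed reached 1 TPM in both pups and summed to 1392 and 1425 TPM. Park7, a redox-sensitive protein, had 350 and 335 TPM, Akr1b3 289 and 353, Txnip, which binds and inhibits thioredoxin, 198 and 202, and Glo1, which uses glutathione to remove methylglyoxal, 174 and 167. By TPM the levels of Txnip and Txn2 overlapped, and both were under Txn1. By expected counts, not divided by length, Txnip (13365 and 16697) was above Txn1 (11240 and 13785) and Txn2 (7344 and 8517). The haem oxygenases, which open the haem ring, were lower, with Hmox2 at 87.2 and 81.1 TPM and the inducible Hmox1 at 34.9 and 31.1.

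Nfe2l2, the gene of NRF2, had 79.9 TPM in pup 1 and 77.1 in pup 2 (chromosome 2, 75675513 to 75704641), and Keap1, the adaptor that marks NRF2 for degradation, 41.7 and 39.1. Nfe2l2 mRNA was thus 1.92 and 1.97 times that of Keap1. The quinone reductase Nqo1, a widely used readout of NRF2, had 13.08 and 16.9 TPM (chromosome 8, 107388225 to 107403206), and Nqo2 9.00 and 7.96. The activity of NRF2 was not measured, and the level of 1 such gene does not give it. Nqo1 ranked 7786 in pup 1 and 6681 in pup 2 among protein-coding genes, and by counts not divided by length it was under Nqo2 (log2 ratio of Nqo1 to Nqo2 of -0.55). All 8 listed NRF2 partners reached 1 TPM, from Sqstm1, which binds KEAP1, at 279 and 265 TPM to the small Maf protein gene Maff at 3.33 and 3.39 TPM.

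The core of the NRF2 binding motif occurred at the members' start sites at about the share seen over all genes. RefSeq promoter windows (GRCm38.p6, 250 bases before to 50 after each start) were matched for 56 of the 63 members, and not for Gclc, Ggt5, Gsr, Gsta4, Gstt2, Prdx6 and Sod3. The core of the antioxidant response element, TGACNNNGC on either strand, occurred in 10 of 75 member windows (13.3%), 1 in each of 10 members, against 12.4% of 32851 windows of all genes. The stretches of 4 members are shown along the gene's strand with the motif in capitals. Prdx1 is the member of highest TPM and Gclm the ligase modifier. Txnrd1 and Gsta3 also match a longer motif in which the core is followed by A.
Prdx1: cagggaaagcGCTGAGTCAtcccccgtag
Gclm: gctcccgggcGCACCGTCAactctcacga
Txnrd1: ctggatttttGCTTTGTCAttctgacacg
Gsta3: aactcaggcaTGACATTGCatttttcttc
In the Prdx1, Gclm and Txnrd1 stretches the motif reads on the opposite strand. Their motifs begin 133, 134 and 92 bases before the start site, and the Gsta3 motif 121 bases before. The Prdx1 motif is at chr4:116685466-116685474 and the Txnrd1 motif at chr10:82859114-82859122. Members with a match had a median mean level of 106 TPM and those without 57.02, but single genes ran against this: Srxn1 and Gstm7 had a match at mean levels of 16.1 and 14.6 TPM, and Gpx3 and Gpx1 had none. A match describes letters only; binding was not measured.

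Total RNA also holds transcripts that encode no full protein, and transcript models divided several members. Of 50 members with a mean of at least 10 TPM, 33 had a leading transcript with 90% or more of the gene's TPM in both pups, and 13 had a second transcript at 20% or more. The leading transcript was the same in both pups for 49 of 50; in Gstm4 it was Gstm4-201 in pup 1 (63.8% against 33.5% for Gstm4-203) and Gstm4-203 in pup 2 (56.98% against 43.02%). In Prdx6, transcripts annotated as not protein-coding held 86.4% of TPM in pup 1 and 86.7% in pup 2, or 74.2% and 74.8% of its expected counts. They were led by Prdx6-208, annotated for nonsense-mediated decay, with 47.8% and 49.4%. The main protein-coding Prdx6 transcript, Prdx6-202, had 11.99% and 11.3%, which is 37.2 and 32.05 TPM. The Prdx6 level given above is thus mostly not that of its protein-coding models. Of the other members in this set, 4 had more than 10% of TPM in such transcripts in both pups: Glrx2 (27.01% and 26.7%), Gclm (18.9% and 20.7%), Prdx2 (14.97% and 14.4%) and Txnrd2 (12.2% and 14.4%). By expected counts, of these only Glrx2 passed 10% in both pups (18.77% and 19.87%). The shares of counts were 7.8% and 9.09% in Gclm, 7.0% and 6.6% in Prdx2, and 11.55% and 9.24% in Txnrd2.

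Prdx1 shows how far TPM and counts part. By TPM its leading model was Prdx1-201 with 52.1% and 54.6%, a model of 636 nt whose coding sequence is annotated as incomplete. By expected counts Prdx1-204, of 2294 nt and with the complete coding sequence, led with 28561 and 34842 against 14199.75 and 17735 for Prdx1-201.

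Protein-coding transcripts also differed in what they encode. Gpx1-201, which holds the selenocysteine codon, had 51.3% and 50.4% of Gpx1 TPM, and the shorter Gpx1-204, whose coding sequence lacks it, 47.4% and 48.8%. In Gpx4 the leading transcripts Gpx4-207 (63.8% and 64.96%) and Gpx4-202 (34.1% and 33.4%) both hold the codon and differ in coding length, 474 and 594 nt. For Mgst1 the leading model Mgst1-207 (56.9% and 56.8%) has a coding sequence of only 156 nt, against 468 nt in Mgst1-204 and Mgst1-201. Prdx5 was divided among 3 models, Prdx5-203 (45.2% and 46.02%), Prdx5-204 (29.4% and 30.8%) and Prdx5-201 (24.8% and 22.6%), with coding lengths of 642, 501 and 633 nt. Glutathione synthetase had Gss-201 at 57.6% and 64.7% and the shorter Gss-203 at 39.2% and 32.2%, a step between the pups that rested mainly on Gss-203 (41.8 and 29.4 TPM, against 61.5 and 58.9 for Gss-201). The 4 protein-coding transcripts of Keap1 share 1 coding sequence of 1875 nt. TPM divides by length, so a short model takes a larger share of TPM than of counts.

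**Figure D3:**
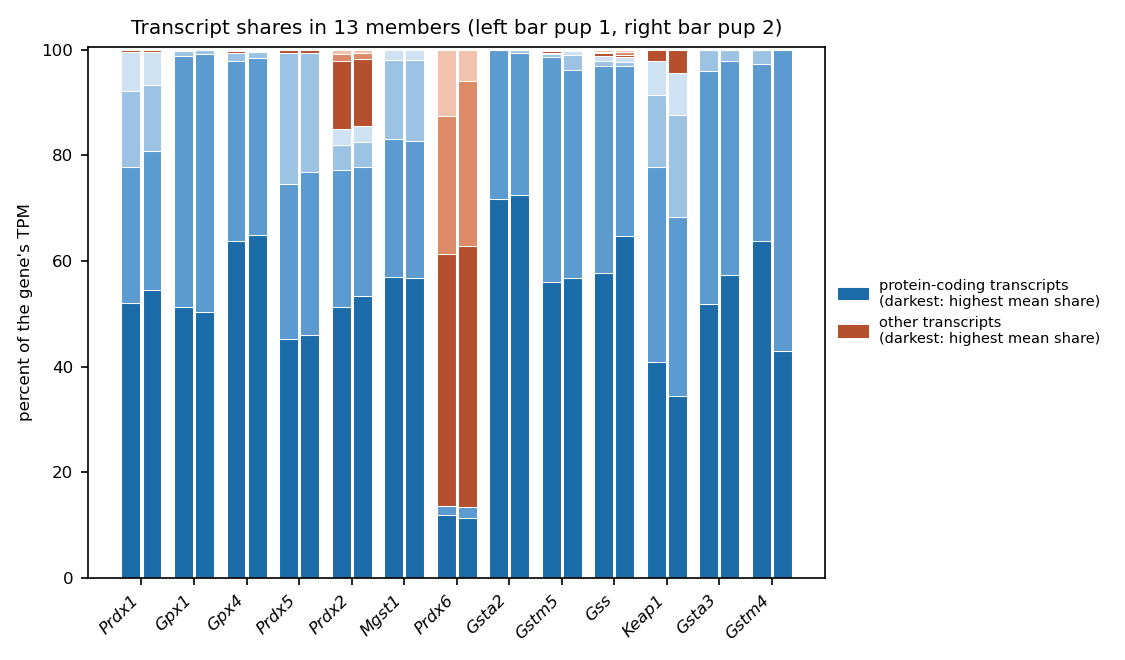
Percent of each gene's TPM by transcript in the 13 members with a second transcript at 20% or more, left bar pup 1 and right bar pup 2; blue segments are protein-coding transcripts and red segments others, darker where the mean share is higher. Prdx6 stands apart, with 86.4% and 86.7% in transcripts that are not protein-coding.

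The pups differed little in these genes. Differences were taken as log2 ratios of scaled CPM + 0.1, pup 2 over pup 1, where one of the pups had 50 expected counts or more. This left 57 members, and with 1 sample against 1 there is no test. No member differed by 2-fold or more, against 0.587% of 15154 features, 0.429% higher in pup 2 and 0.158% lower. A smaller step, 0.32 on the log2 scale, was passed upward in pup 2 by 5 members, where 6.68% of all features passed it, and downward by none, where 3.21% did (9.9% in either direction). For 57 members, 5 is near that background. The median absolute log2 difference was 0.08 over the members and 0.10 over all features. In sign, 42 members were higher in pup 2 and 15 lower, with a median of 0.06. Of all 15154 features, 7839 were higher in pup 2 and 7315 lower by the same measure. But by TPM without further scaling 24 members were higher and 33 lower, with a median of -0.01. That scale moved the median of all features as well, from 0.01 to -0.07, so the members' sign depends on the scaling, while their median lay about as far above that of all features on both scales.

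**Figure D4:**
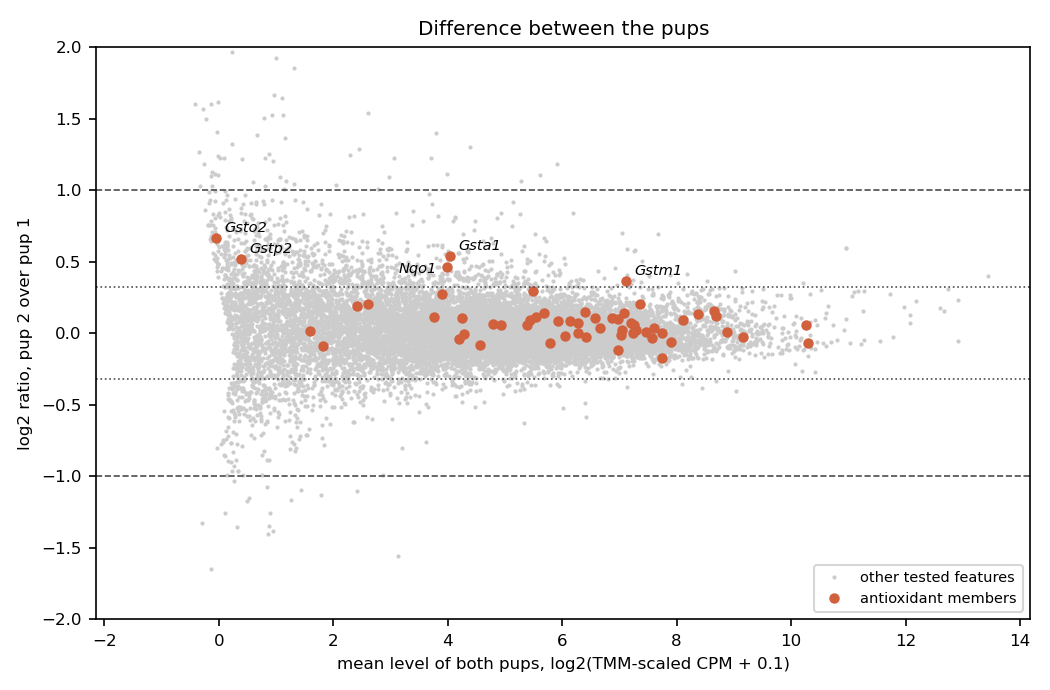
Log2 ratio of pup 2 over pup 1 against the mean log2 level in scaled CPM + 0.1, for the members (red) and other features (grey); dashed lines mark 2-fold and dotted lines the smaller step of 0.32, and 20 grey features lie outside the plotted range. The 5 labelled members are past the smaller step and none of the 57 is past 2-fold.

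The 5 members past the smaller step were of unequal depth. Gsta1 had 569 expected counts in pup 1 and 955 in pup 2, a log2 ratio of 0.54 with a 95% exact binomial interval for counting error of 0.39 to 0.69, and it is the member that shares most of its sequence. Nqo1 had 564 and 898 counts, a log2 ratio of 0.46 (0.31 to 0.62). Gstm1 had 5101 and 7567 counts, a log2 ratio of 0.36 (0.31 to 0.41). For these 3 the interval excludes 0, which says only that counting error is smaller than the difference between these libraries. Gstp2 (41.9 and 71.1 counts) had a ratio of 0.51 with an interval from -0.02 to 1.14, which includes 0. Gsto2 (28 and 54 counts) had 0.66 with an interval from 0.06 to 1.45, which also excludes 0 but rests on few counts. Gpx6, with 0.29 (0.20 to 0.38), lay just within the smaller step. Between the same pups 4 of 8 proximal tubule markers were lower in pup 2 by more than that step, among them Miox (152 and 94.8 TPM) and Slc34a1. Lrp2 (log2 ratio -0.01), Cubn (-0.08), Slc5a2 (-0.18) and Slc22a6 (-0.29) stayed within it. Together the 8 summed to 1934 and 1411 TPM, none at 0. The 6 hepatocyte markers summed to 209 and 199 TPM, and the 4 adrenal markers to 1.26 and 1.39. Most of the hepatocyte sum came from Afp (105.08 and 95.25 TPM), Ttr (69.21 and 76.15) and Serpina1a (23.18 and 20.83). Alb had 5.65 and 2.42 TPM, Apoa1 5.51 and 4.39, and Cps1 0.17 and 0.12. Alb was lower in pup 2 by more than 2-fold (log2 ratio -1.11). Within the smaller step, Ttr was higher (0.23) and Afp (-0.05), Serpina1a (-0.06) and Apoa1 (-0.23) were lower. Cps1 had too few counts for this comparison. Of the other lists, 1 of 2 nephron progenitor markers passed the step upward in pup 2, Six2 (9.21 and 15.1 TPM). The other, Cited1, did not (99.2 and 95.5 TPM). Of 4 macrophage and neutrophil markers, C1qb alone passed it, upward (44.9 and 55.1 TPM). Lyz2 (61.1 and 60.9 TPM), S100a8 (69.7 and 72.6) and S100a9 (34.9 and 34.0) did not, and no erythroid marker did. The part of these in the members' differences was not tested. Among the listed related genes outside the rule, Akr1b3, an aldehyde-reducing enzyme, was higher in pup 2 past the smaller step (289 and 353 TPM) and Slc7a11 lower (51.2 and 45.2 expected counts, log2 ratio -0.35 with a counting interval of -0.998 to 0.22 that includes 0); none passed 2-fold.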

How the data were processed

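Per the text deposited with each library, the authors quantified transcriptome alignments of each library on its own against mm10 with the GENCODE annotation M4; aligner, versions and strand setting were not given in the sources used here. Per the file headers, the deposited tables give expected counts (estimated reads), TPM scaled to a fixed total, FPKM, transcript shares in percent, and posterior means, with a posterior SD of each count (a signal column without normalization) and bounds of TPM, handled as a score and not printed. Of 69691 features, 42462 were named by Ensembl identifier through GENCODE M21 (GRCm38, the same assembly), which also gave coordinates, coding sequences and transcript types; 218 of 220 member transcripts matched.

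Expected counts were rounded for TMM factors (edgeR 4.0.16) and DESeq2 1.42.0 size factors in R 4.3.3; ratios used the unrounded counts. Ratios between genes are quotients of TPM; whether they kept their direction was read on log2(TPM + 1). Depth sets the counting intervals (95%, exact binomial), which cover counting error only. Windows of 50 bases were matched on the transcript strand; coding identity came from global alignment. The calls on ratios were tested on simulated counts with known folds, scaled by the unchanged genes and not by TMM. The motif search was tested on made strings. Other steps were not tested on simulated data. Figures were drawn with Matplotlib 3.10.9; SciPy 1.17.1, pandas 2.3.3 and NumPy 2.4.6 ran under Python 3.11.15. The members, related gene lists, gene pairs and tests were chosen with earlier results of these data known. All members were to be described by role, with those past the smaller step, 22 gene pairs and the listed related genes named. Ratios between neighbours are called separate where levels did not overlap over the pups; with 2 pups an exact sign-flip test cannot go below p = 0.5.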

Additional observations from a re-analysis of the deposited data

How the results depend on the processing

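The number of members at 1 TPM in both pups (57) stayed between 52 and 58 with a level of 0.5 or 5 TPM, FPKM, posterior mean TPM or either pup alone. Levels in FPKM are a rescaling by library, giving a sum of 8667 and a median of 44.5. Without mitochondrially encoded genes, 2 nuclear copies and the Rn7s genes the sum was 13647 ± 5.09 TPM and the median 70.05; the difference between the pups in the sum shrank with it. Leaving out a pup gave sums from 11724 to 12018 and medians from 59.2 to 62.7. CPM, not divided by length, reversed 5 of 22 gene pairs: log2 ratios of Txnrd2/Txnrd3 (-0.72), Glrx/Glrx2 (0.24), Glrx3/Glrx5 (0.62), Nqo1/Nqo2 (-0.55) and Gstm1/Gstm5 (0.23). The other 17 kept their direction, but each moved by more than the spread between the pups; beyond those given above, Sod1/Sod3 went from 4.05 to 1.40, Gss/Gclc from 1.48 to 0.58 and Mgst3/Mgst1 from -2.002 to -1.41. With a minimum of 10 counts or no filter 1 member, Gpx2, was higher in pup 2 by 2-fold or more (log2 ratio 1.19, counting interval 0.21 to 5.58, from 2.21 and 12 counts). At the smaller step of 0.32 in log2, 8 were higher with no filter and 3 by TPM + 1; the other settings gave 4 to 6, and none was lower under any. The median ratio of all features moved by less than 0.1 between settings. The longer motif, the core followed by A, was found in 2 member windows, against 3.04% of all windows. Members sharing 10% or more of windows numbered 12 with 30-base and 10 with 75-base windows. No paired analysis was possible because there is 1 group. The cause of these changes was not tested, except where the setting itself fixes it.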
